A study of Ovis aries with 12 samples.

Results

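The steroid hormone receptor genes of sheep oviduct cells were followed through a short oestradiol treatment. The set was named gene by gene as ESR1, ESR2, PGR, NR3C1, NR3C2, PGRMC1 and PGRMC2, 7 genes. The rule that names them uses no values, but the members were chosen with earlier results of these data known. In the authors' gene table of 18340 genes, 4 of the 7 were found by gene name and 2, PGR and NR3C2, by their description. PGRMC1 was not matched to a row and is not analysed here. Of the 6 measured genes, ESR1, PGR, NR3C1 and PGRMC2 reached a mean of 1 FPKM (fragments per length of transcript and size of library) and were tested among 12025 such genes.

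Epithelial cells were scraped from the ampulla of the sheep (Ovis aries) oviduct, the segment in which fertilisation takes place, and kept for 12 h without serum or phenol red. Groups were treated with 10 nM oestradiol (E2) for 1.5 h (T1), 3.5 h (T2) or 5.5 h (T3), and the control was taken at 0 h of the same treatment (T0). Each time had 3 libraries, numbered 1 to 3 in the labels, which gave 12 libraries in all. Whether a number stands for an animal, a culture or a repeat of the library is not stated in the labels, so the p-values below measure the spread among these samples alone, which may be technical. No library without E2 beyond 0 h is analysed here, and E2 and the hours in culture cannot be told apart.

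Counts in genes summed to between 48490974 and 79387070 per library. The cells carried epithelial markers: 8 of the 9 listed general epithelial genes were in the table, all 8 above 1 FPKM, with summed levels of 8803 to 11660 FPKM. Of the secretory oviduct markers, PAX8 reached 26.1 to 44.4 FPKM, while OVGP1, oviductal glycoprotein, was at 0.079 to 0.885 FPKM. Of the 8 ciliated cell markers in the table, 3 reached a mean of 1 FPKM and the sum was 32.8 to 85.0 FPKM. TPPP3 had 17.0 to 61.8 FPKM and CCDC17 1.90 to 5.42 FPKM, while FOXJ1 and DNAH5 were each listed at 0 in 8 libraries. Of the 6 immune markers 3 reached 1 FPKM, with a sum of 55.5 to 100.5 FPKM, among them LCP1 at 34.6 to 74.2 and CD14 at 6.04 to 16.2 FPKM, while PTPRC did not exceed 0.121 FPKM. Of the 5 endothelial markers found, 2 reached 1 FPKM, with a sum of 7.53 to 26.0 FPKM: VWF had 4.73 to 14.9 and CDH5 2.56 to 10.3 FPKM, while PECAM1 did not exceed 0.201 FPKM. The part of these other cell types in the results below was not tested.

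Steroid receptors of the nuclear family sit in the cytoplasm or nucleus with heat shock chaperones until they bind their hormone, and then act as transcription factors. ESR1 and ESR2 bind oestrogens, PGR binds progesterone, NR3C1 is the glucocorticoid receptor and NR3C2 the mineralocorticoid receptor. PGRMC1 and PGRMC2 are haem-binding membrane proteins that are linked to progesterone responses and are not members of the nuclear family. In the oviduct, oestrogen and progesterone govern secretion, cilia and the passage of the egg, and PGR is a classical oestrogen-induced gene.

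The receptor genes differed in level by far more than they differed between times. Averaged over the 12 libraries and given per transcript length, PGRMC2 stood at 56.4 FPKM, NR3C1 at 25.0, PGR at 12.0 and ESR1 at 6.44 FPKM. NR3C2, at 0.0842 FPKM, and ESR2, at 0.0525 FPKM, were close to the limit of the counts. These levels rest on the transcript lengths listed in the authors' table: 471 bases for PGRMC2, 6731 for NR3C1, 1044 for PGR and 1488 for ESR1. Whether the listed transcripts are complete was not tested. By counts per library NR3C1 stood above PGRMC2, at 8109 to 17495 against 1289 to 2525. Against the 12025 tested genes, 84.7% had a lower mean FPKM than PGRMC2, 68.3% a lower mean than NR3C1, 48.4% than PGR and 32.3% than ESR1. Within each library, PGRMC2 was 1.94 to 2.99 times NR3C1 in FPKM, and NR3C1 was 1.54 to 2.75 times PGR, so this order held in all 12 libraries. The lowest and highest library values of these 3 genes did not meet. PGR and ESR1 were the only neighbours among the 4 whose FPKM ranges overlapped, at 9.68 to 15.4 for PGR and 4.35 to 11.4 for ESR1. PGR stood above ESR1 in 11 of 12 libraries, with a ratio of 0.973 in the other one, 0 h number 3.

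Set beside the nuclear receptor family as a whole, NR3C1 ranked 3 and PGR ranked 5 by mean FPKM among 37 family members found in the table. RARA, a retinoic acid receptor, led at 35.3 FPKM, followed by the orphan receptor NR2C1 at 27.9 FPKM. ESR1 ranked 13, between NR4A1 at 6.46 FPKM and NR1H3 at 6.43 FPKM, whose library ranges it overlapped. NR3C2 ranked 33 and ESR2 ranked 34.

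**Figure D1:**
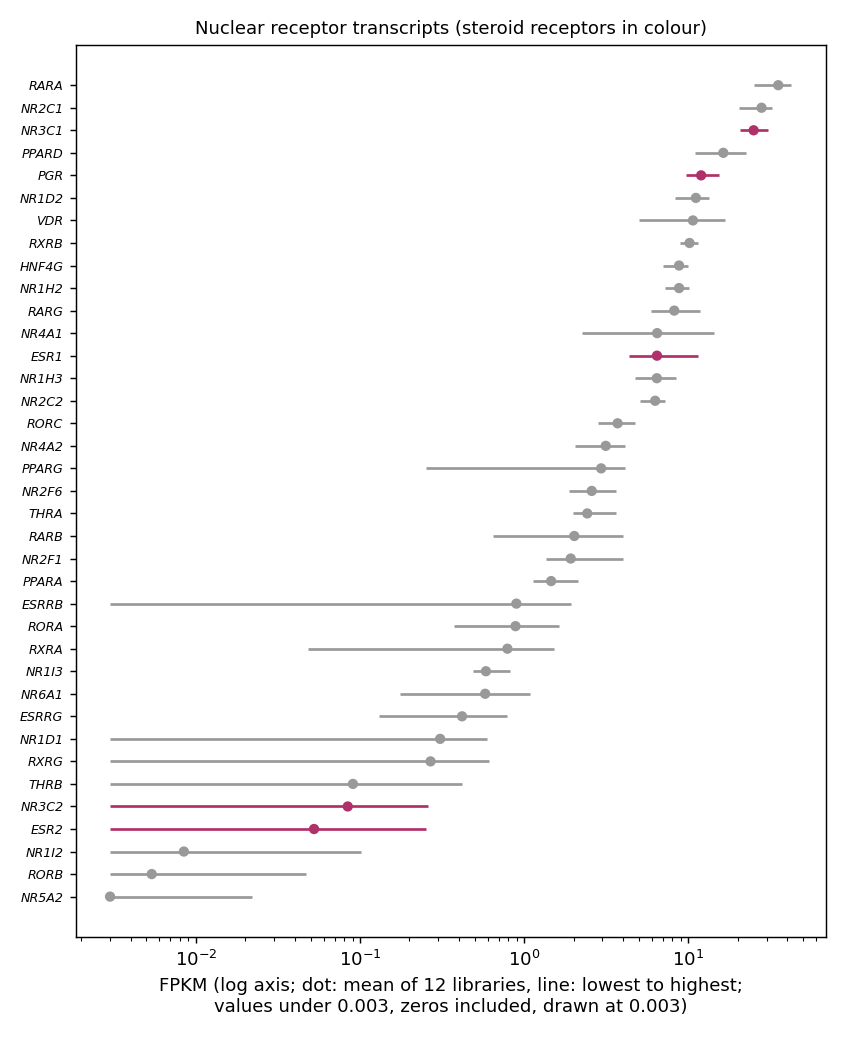
Mean FPKM (log axis) of 37 nuclear receptor genes over 12 libraries, with lines from the lowest to the highest library and the steroid receptors in colour. NR3C1 and PGR lie near the top at 25.0 and 12.0 FPKM, ESR1 in the upper middle at 6.44, and NR3C2 and ESR2 below 1 FPKM.

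No receptor gene passed the test at any time. With edgeR's quasi-likelihood test and Benjamini-Hochberg adjustment over all tested genes, 0 of the 4 receptor genes were called in any of 7 tests (each treated time against 0 h, the treated times against each other, and any difference among the 4 times). The same was true of all genes (0% in each test). With the library number as a replicate block, edgeR again called 0 of 4, beside 0.00832%, 0% and 0% of all genes at 1.5, 3.5 and 5.5 h against 0 h, 0%, 0.00832% and 0% between treated times and 0.0166% among the 4 times. At an unadjusted p under 0.05, the count was 1 of 4 at 1.5 h (2.39% of all genes), 1 of 4 at 3.5 h (2.16%) and 2 of 4 at 5.5 h (2.1%), each against 0 h. DESeq2 called 0 of the 4 as well, beside 0.00832%, 0.0499% and 0.0582% of all genes at 1.5, 3.5 and 5.5 h against 0 h, and with the block it called 0 of 4 beside 0.798%, 0.283% and 0.266%. Across all settings tried, the lowest adjusted p of any receptor gene was 0.178, from DESeq2 with the block, for PGR at 5.5 h. The 3 comparisons with 0 h share the 0 h libraries, so their values are not independent.

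**Figure D2:**
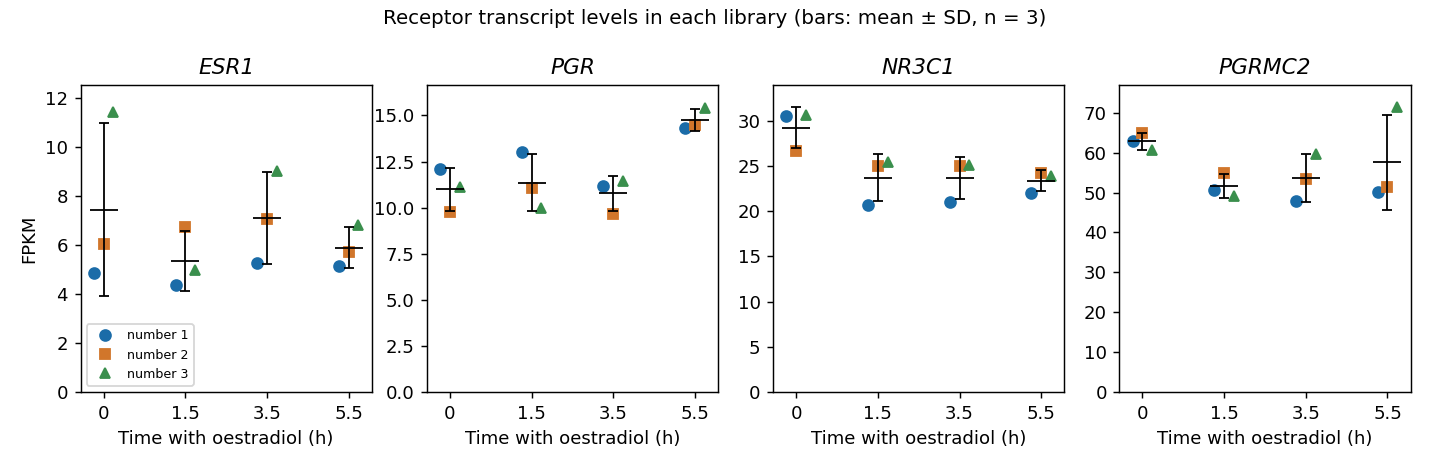
FPKM of the 4 tested receptor genes in each library, by hours with 10 nM oestradiol, with horizontal bars for the mean and error bars for the SD of 3 libraries. PGR reached 14.3 to 15.4 FPKM at 5.5 h, above the 9.68 to 13.0 of all other libraries, and NR3C1 was highest at 0 h.

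Among the oestrogen receptors, only ESR1 was measured well enough to follow. ESR1 (ENSOARG00000003344, chromosome 8, 75378787 to 75701170, plus strand, in the authors' coordinates, whose build is not given in the sources used here) has 1 transcript of 1488 bases in 8 exons in the table. At 0 h its libraries numbered 1, 2 and 3 had 4.86, 6.02 and 11.4 FPKM. At 1.5 h they had 4.35, 6.72 and 4.97 FPKM, at 3.5 h 5.25, 7.05 and 9.0, and at 5.5 h 5.15, 5.71 and 6.81. The 0 h library number 3 was the highest of the 12, and every treated group overlapped the 0 h group. Its group means in FPKM (± SD, n = 3) were 7.44 ± 3.51 for 0 h, 5.35 ± 1.23 for 1.5 h, 7.10 ± 1.87 for 3.5 h and 5.89 ± 0.842 for 5.5 h.

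The counts of ESR1 gave log2 differences from 0 h of −0.43 ± 0.31 at 1.5 h, −0.04 ± 0.31 at 3.5 h and −0.33 ± 0.31 at 5.5 h (SE; edgeR, adjusted p = 1.00 at each time). Their 95% intervals ran from −1.12 to 0.25, from −0.72 to 0.64 and from −1.01 to 0.36. At 1.5 h and 5.5 h the direction rested on a single library. Without the 0 h library number 3 the 3 values were 0.0039, 0.40 and 0.11. The value at 3.5 h also changed sign without the 3.5 h library number 1, to 0.13. In pairs of the same number, number 3 gave −1.13, −0.33 and −0.74 at 1.5, 3.5 and 5.5 h, while numbers 1 and 2 gave −0.13 to 0.24. ESR1 also varied most of the tested receptors, with a coefficient of variation of 31.3% in FPKM over the 12 libraries, against 12.6% to 16.2% for the other 3.

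Within number 3, markers of smooth muscle stood in the reverse order to ESR1. Their summed level in number 3 was 266 FPKM for 0 h, 2504 for 1.5 h, 408 for 3.5 h and 709 for 5.5 h, against 11.4, 4.97, 9.0 and 6.81 FPKM of ESR1. The reverse order held in neither number 1 nor number 2. In number 1 the sum was 1087, 1247, 1213 and 1229 FPKM at 0, 1.5, 3.5 and 5.5 h. ESR1 in number 1 was 4.86, 4.35, 5.25 and 5.15 FPKM at these times. In number 2 the sum was 1387, 1827, 2064 and 1902 FPKM, and ESR1 was 6.02, 6.72, 7.05 and 5.71 FPKM. By group, the sum ranged over 266 to 1387 FPKM for 0 h, 1247 to 2504 for 1.5 h, 408 to 2064 for 3.5 h and 709 to 1902 for 5.5 h. All 6 listed markers were in the table, but only 3 reached 1 FPKM: TAGLN made up most of the sum, at 256 to 2353 FPKM, and DES was listed at 0 in 8 libraries, with MYH11 at 0.495 to 0.742 and ACTG2 at up to 0.928 FPKM. Fibroblast and stroma markers, 8 of 9 in the table and mostly VIM, summed to 874 FPKM for 0 h, 1418 for 1.5 h, 785 for 3.5 h and 986 for 5.5 h in number 3, and to 1347 to 1822 in numbers 1 and 2. General epithelial markers in number 3 summed to 11660 FPKM for 0 h, 11570 for 1.5 h, 11330 for 3.5 h and 11447 for 5.5 h. The part of any of these marker lists in the ESR1 values was not tested. In bulk libraries fewer cells of a type and less RNA per cell cannot be told apart.

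**Figure D3:**
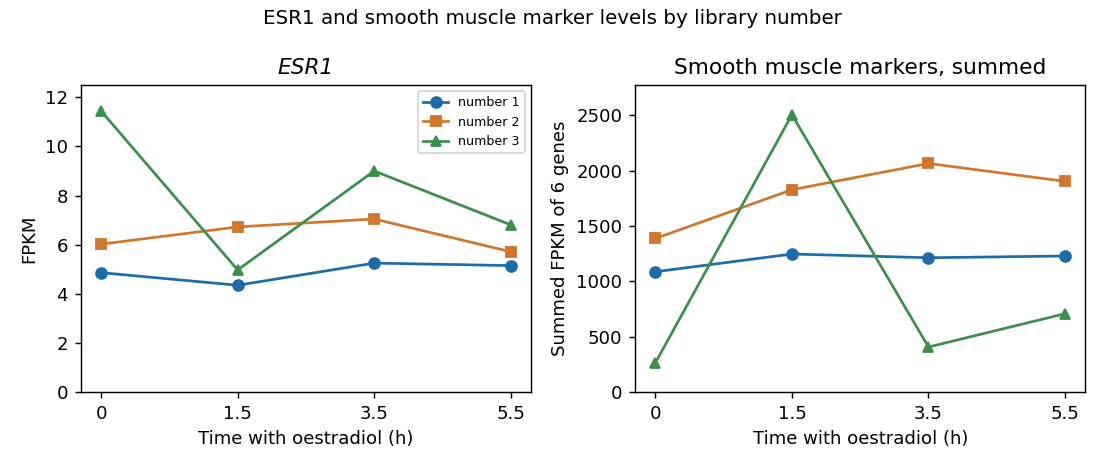
ESR1 in FPKM (left) and the summed FPKM of 6 smooth muscle markers (right), by hours with 10 nM oestradiol, with 1 line for each library number. Number 3 has the widest range in both panels: ESR1 is highest, at 11.4 FPKM, in the 0 h library whose marker sum is lowest, at 266 FPKM.

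ESR2 (ENSOARG00000021148, chromosome 7, 73323879 to 73369246, minus strand, 1706 bases in 8 exons) had 9 counts in 0 h number 1, 16 in 1.5 h number 2, 25 in 3.5 h number 1 and 16 in 5.5 h number 3, and was listed at 0 in the other 8 libraries. The counts were in 1 library per time and in no fixed library number. A listed 0 may be a failed estimate rather than an absence: among 969 genes of 1 transcript, several exons and a mean count of 3 to 12, 42.9% of values were 0, where counting error alone gives 0.962%. No fold or limit is therefore given for ESR2. Without the filter on low values ESR2 was not called at any time (edgeR, adjusted p = 1.00).

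The progesterone receptor gene stood apart at the last time, 5.5 h. PGR (ENSOARG00000007837, chromosome 15, 7462011 to 7513695, plus strand, 1044 bases in 6 exons) had 12.1, 9.79 and 11.1 FPKM at 0 h in numbers 1, 2 and 3. It had 13.0, 11.1 and 9.96 FPKM at 1.5 h, 11.2, 9.68 and 11.5 at 3.5 h and 14.3, 14.5 and 15.4 at 5.5 h. All 3 libraries of 5.5 h lay above all 9 others, while the 1.5 h and 3.5 h groups overlapped the 0 h group. Groups that do not overlap in this direction were found in 3.74% of tested genes for 5.5 h against 0 h, in 3.47% against 1.5 h and in 1.75% against 3.5 h.

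PGR averaged 14.8 ± 0.586 FPKM at 5.5 h and 11 ± 1.15 FPKM at 0 h (SD, n = 3). On counts, 5.5 h was 1.35-fold 0 h, with a 95% interval of 1.10 to 1.66 and a log2 difference of 0.43 ± 0.13 (SE; edgeR, unadjusted p = 0.00833, adjusted p = 1.00). The difference was 0.35 ± 0.13 from 1.5 h (unadjusted p = 0.0252 in edgeR) and 0.44 ± 0.13 from 3.5 h (unadjusted p = 0.0076 in edgeR). Each of these 2 comparisons had 1 of 4 receptor genes under 0.05, against 1.75% and 0.765% of all genes. At 1.5 h and 3.5 h the log2 differences from 0 h were 0.08 ± 0.13 and −0.01 ± 0.13, with 95% intervals of −0.21 to 0.38 and −0.30 to 0.29.

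PGR was higher at 5.5 h than at 0 h in all 3 pairs of the same number, by 0.26, 0.57 and 0.47 in log2 CPM (counts scaled to library size). That was so of 15.9% of tested genes. Over 36 settings, which included leaving out each library in turn, the value stayed between 0.36 and 0.52. The authors' deposited table gives a log2 ratio of 0.42 for PGR at 5.5 h with a p of 0.118 and a q of 1, and does not mark it as significant.

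The glucocorticoid receptor gene showed the opposite arrangement, with 0 h standing apart. NR3C1 (ENSOARG00000002045, chromosome 5, 51733916 to 51850972, minus strand, 6731 bases in 9 exons) had 30.5, 26.6 and 30.6 FPKM at 0 h in numbers 1, 2 and 3. It had 20.7, 25.0 and 25.4 FPKM at 1.5 h, 21.0, 25.0 and 25.1 at 3.5 h and 22.1, 24.3 and 23.9 at 5.5 h. Every treated library lay below every 0 h library. Groups that do not overlap in this direction were found in 4.02% of tested genes at 1.5 h, 3.19% at 3.5 h and 3.18% at 5.5 h.

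NR3C1 was the most deeply counted receptor gene, with 8109 to 17495 counts per library. Its level was 0.834-fold that of 0 h at 1.5 h (95% interval 0.707 to 0.983), 0.824-fold at 3.5 h (0.699 to 0.972) and 0.805-fold at 5.5 h (0.683 to 0.949). The log2 differences were −0.26 ± 0.11, −0.28 ± 0.11 and −0.31 ± 0.11 (SE; edgeR, unadjusted p = 0.0338, 0.0254 and 0.0146, adjusted p = 1.00 at each time). Between treated times they were at most 0.05 in size, for example −0.05 ± 0.11 for 5.5 h against 1.5 h. With the replicate block the adjusted p was 0.489, 0.748 and 0.743 (edgeR), so the call did not change.

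All 3 pairs of NR3C1 were lower with E2 than at 0 h at each time, as in 13.7%, 16.2% and 15.1% of tested genes at 1.5, 3.5 and 5.5 h. The pairs were unequal in size: number 1 gave −0.53, −0.50 and −0.45 in log2 CPM at 1.5, 3.5 and 5.5 h, number 3 gave −0.20, −0.27 and −0.35, and number 2 gave −0.07, −0.07 and −0.13. In number 2 the 0 h level was the lowest of the 3, at 26.6 FPKM. The authors' deposited table gives log2 ratios of −0.30, −0.30 and −0.32 for NR3C1, each with a q of 1.

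**Figure D4:**
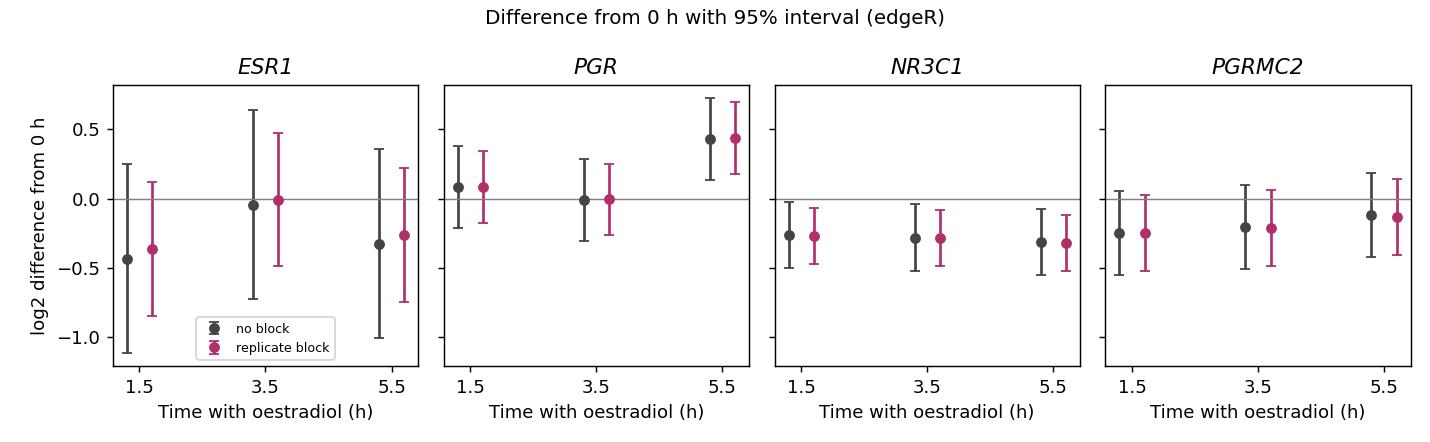
Log2 difference from 0 h of the 4 tested receptor genes at 1.5, 3.5 and 5.5 h, with 95% intervals from edgeR, with and without a block for the library number. The intervals leave out 0 for PGR at 5.5 h and for NR3C1 at every time, but no adjusted p was under 0.05.

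PGR and NR3C1 may also be read against each other within a library, although FPKM is already scaled to library size. The ratio of NR3C1 to PGR in FPKM (mean ± SD, n = 3) was 2.66 ± 0.124 for 0 h, 2.13 ± 0.494 for 1.5 h, 2.22 ± 0.352 for 3.5 h and 1.59 ± 0.0755 for 5.5 h. The 5.5 h ratios, 1.54 to 1.67, lay below the 0 h ratios, 2.52 to 2.75. This follows from PGR lying wholly above and NR3C1 wholly below 0 h at 5.5 h, and is no separate result. The 1.5 h and 3.5 h ratios overlapped those of 0 h.

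NR3C2 (ENSOARG00000007116, chromosome 17, 9647868 to 9817151, plus strand, 1411 bases in 7 exons) was counted in few reads. In numbers 1 and 2 it had 11 and 12 counts at 0 h, 9 and 22 at 1.5 h and 16 and 20 at 3.5 h. It was listed at 0 in number 3 at each of these times and in all 3 libraries of 5.5 h, so 6 of 12 libraries were at 0. The limit on listed zeros given for ESR2 applies here too, and the absence of counts at 5.5 h has no fold or limit attached. Tested without the filter, it was not called at any time (edgeR, adjusted p = 1.00, unadjusted p = 0.0456 for 5.5 h against 0 h).

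PGRMC2, the membrane-bound member, had the highest level per length. The gene (ENSOARG00000015225, chromosome 17, 29240707 to 29257289, plus strand, 471 bases in 3 exons) had 62.8, 64.8 and 60.7 FPKM at 0 h in numbers 1, 2 and 3. It had 50.6, 54.9 and 49.2 FPKM at 1.5 h, 47.8, 53.3 and 59.7 at 3.5 h and 50.01, 51.3 and 71.3 at 5.5 h. All libraries of 1.5 h and 3.5 h lay below those of 0 h. At 5.5 h number 3 was the highest of all 12 and the other 2 lay below 0 h, so the groups overlapped. NR3C1 and PGRMC2 were therefore the 2 of 4 receptor genes with no overlap in the lower direction at 1.5 h and 3.5 h, where 4.02% and 3.19% of tested genes had none. None of the 4 lay wholly above 0 h at 1.5 h or 3.5 h, as 4.29% and 3.57% of tested genes did. Between treated times none lay wholly lower, as 2.5% (3.5 h against 1.5 h), 2.8% (5.5 h against 1.5 h) and 1.56% (5.5 h against 3.5 h) did, and none lay wholly higher at 3.5 h than at 1.5 h, as 2.56% did.

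Group means of PGRMC2 in FPKM (± SD, n = 3) were 62.8 ± 2.07 for 0 h, 51.6 ± 2.95 for 1.5 h, 53.6 ± 5.97 for 3.5 h and 57.5 ± 11.9 for 5.5 h. The log2 differences from 0 h were −0.24 ± 0.14, −0.21 ± 0.14 and −0.12 ± 0.14 (SE; edgeR, unadjusted p = 0.102, 0.16 and 0.403, adjusted p = 1.00 at each time). Their 95% intervals were −0.55 to 0.06, −0.51 to 0.10 and −0.42 to 0.18. Without number 3 and with the replicate block, the value at 5.5 h was −0.32.

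In the test among all 4 times, PGR had an unadjusted p of 0.0205, NR3C1 of 0.0476, PGRMC2 of 0.333 and ESR1 of 0.456 in edgeR, all with an adjusted p of 1.00. That was 2 of 4 under 0.05, against 1.22% of all genes. For 3.5 h against 1.5 h it was 0 of 4, against 1.34% of all genes.

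The genes whose profile was most like each receptor gene were found by Pearson's r over the 12 libraries, on log2 CPM with the mean of each library number taken off. Both genes of a pair share the depth of each library and its cell makeup. Each r was picked as among the highest over the tested genes with an unambiguous symbol, so it is a description only. ESR1 was followed most closely by WDFY1 (0.963) and CMTM8 (0.926). PGR was followed by SRGAP2 (0.937), MLH3 (0.931) and PPP1R11 (0.898). SRGAP2 averaged 9.36 FPKM at 5.5 h and 7.39 at 0 h, and MLH3 4.63 FPKM at 5.5 h and 3.66 at 0 h. NR3C1 was followed by TUBA3E (0.935), KIAA0355 (0.921) and NHLRC3 (0.916), and PGRMC2 by TPX2 (0.949), CEP83 (0.946) and CHTF18 (0.946). Between the receptor genes themselves r lay between −0.41 (PGR with NR3C1) and 0.40 (NR3C1 with PGRMC2).

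Of the other genes for steroid receptors, 6 of the 9 listed were in the table, and 4 were tested, with 0 called (edgeR, with or without the replicate block). The membrane progestin receptor genes PAQR8 and PAQR6 had 8.31 to 20.6 and 4.32 to 7.91 FPKM, while PAQR7 was listed at 0 in 10 libraries. PAQR5, a further member of that family, had its highest value, 10.7 FPKM, in 0 h number 3, the library in which ESR1 was highest. Its log2 difference from 0 h was −0.41 ± 0.39, −0.19 ± 0.39 and −0.40 ± 0.39 at 1.5, 3.5 and 5.5 h (SE; edgeR, adjusted p = 1.00).

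Among the 20 tested receptors of the rest of the nuclear family, 0 were called, with 9 higher and 11 lower at 1.5 h, 10 and 10 at 3.5 h and 9 and 11 at 5.5 h. Their median log2 differences were −0.07, −0.02 and −0.02, beside 0.00, 0.00 and 0.01 for all tested genes. RARG, a retinoic acid receptor gene, had log2 differences of −0.45 ± 0.18, −0.39 ± 0.18 and −0.34 ± 0.18 at 1.5, 3.5 and 5.5 h (SE; edgeR, unadjusted p = 0.0312, 0.0576 and 0.0918, adjusted p = 1.00). VDR, the vitamin D receptor gene, had 0.38 ± 0.33, −0.17 ± 0.33 and −0.30 ± 0.33 (SE).

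The chaperones that hold unliganded receptors were abundant. All 15 measured chaperone genes of 16 listed were tested and 0 were called, with medians of −0.02, 0.01 and 0.00 at 1.5, 3.5 and 5.5 h. The HSP90 genes HSP90AA1 and HSP90AB1 averaged 814 ± 82.2 and 816 ± 39.9 FPKM at 0 h (SD, n = 3). The receptor immunophilins FKBP4 and FKBP5 had 29.3 to 50.5 and 23.8 to 37.0 FPKM over the 12 libraries. DNAJB1, a co-chaperone of HSP70, and HSPA8, the constitutive HSP70, had the smallest p of the list in the test among the 4 times. The log2 differences at 1.5, 3.5 and 5.5 h were 0.20 ± 0.10, 0.11 ± 0.10 and 0.00 ± 0.10 for DNAJB1 and −0.06 ± 0.16, −0.03 ± 0.16 and 0.15 ± 0.16 for HSPA8 (SE; edgeR, adjusted p = 1.00). Of 9 ubiquitin and proteasome genes linked to receptor turnover, 9 were tested and 0 called. The ubiquitin ligase gene UBE3A had log2 differences of 0.11 ± 0.09, 0.13 ± 0.09 and 0.18 ± 0.09 at these times, and the proteasome gene PSMD8 0.15 ± 0.12, −0.03 ± 0.12 and 0.01 ± 0.12 (SE).

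Genes known to be induced through NR3C1, NR3C2 or PGR in other species also had 0 calls, beside 0% of all genes in edgeR without the block. Targets of the oestrogen receptors are not analysed here. Of the glucocorticoid-induced genes, 14 of 20 were tested, with medians of 0.02, 0.09 and −0.07 at 1.5, 3.5 and 5.5 h, and 5 higher and 9 lower at 5.5 h. Group means of FKBP5 in FPKM (± SD, n = 3) were 32.5 ± 3.00 for 0 h, 28.0 ± 4.11 for 1.5 h, 30.1 ± 6.02 for 3.5 h and 30.1 ± 5.60 for 5.5 h. SGK1, a kinase that raises sodium channel activity, had log2 differences of −0.28 ± 0.17, −0.08 ± 0.17 and −0.04 ± 0.17 at 1.5, 3.5 and 5.5 h, and ERRFI1, an inhibitor of the EGF receptor, −0.43 ± 0.39, 0.27 ± 0.39 and 0.06 ± 0.39 (SE; edgeR, adjusted p = 1.00). Of the 11 mineralocorticoid-induced genes, several of them shared with the list before, 10 were tested, with medians of −0.20, −0.05 and 0.00.

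SCNN1B, which encodes the beta subunit of the epithelial sodium channel, had 24.8, 24.3 and 22.5 FPKM at 0 h in numbers 1, 2 and 3. It had 21.1, 19.9 and 17.2 FPKM at 1.5 h, 19.1, 17.3 and 21.2 at 3.5 h and 19.6, 18.4 and 15.6 at 5.5 h. Every treated library lay below every 0 h library. Groups that do not overlap in this direction were found in 4.02%, 3.19% and 3.18% of tested genes at 1.5, 3.5 and 5.5 h. SCNN1B was named for its small p within its list, so its values are a description only. The log2 differences were −0.26 ± 0.12, −0.29 ± 0.12 and −0.41 ± 0.12 (SE, edgeR, unadjusted p = 0.0528, 0.0346 and 0.00597, adjusted p = 1.00). EDN1, which encodes the vasoconstrictor endothelin-1, had log2 differences of 0.35 ± 0.30, 0.59 ± 0.30 and 0.57 ± 0.30 (SE; edgeR, adjusted p = 1.00).

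Of 15 listed progesterone receptor targets, 8 were tested, with 5 higher and 3 lower at 1.5 h, and 4 and 4 at both 3.5 h and 5.5 h. Their medians were 0.17, 0.08 and 0.01 at 1.5, 3.5 and 5.5 h, beside 0.00, 0.00 and 0.01 for all tested genes. Neither PGR protein nor progesterone is analysed here, and whether the level of PGR reached these genes was not tested. KLF4, a transcription factor gene, had log2 differences of 0.47 ± 0.18, 0.48 ± 0.18 and 0.26 ± 0.18 (SE; edgeR, unadjusted p = 0.0224, 0.0194 and 0.17, adjusted p = 1.00). IHH and HAND2, uterine targets of PGR in the mouse that were named here after their values were seen, were listed at 0 in 10 and 11 libraries.

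Enzymes that make or remove receptor ligands were measured for 22 of 29 listed genes, of which 18 were tested and 0 called. The medians were 0.04, 0.05 and 0.07 at 1.5, 3.5 and 5.5 h. HSD11B1, which regenerates active glucocorticoid, had 5.54 to 24.3 FPKM, and HSD11B2, which inactivates it and so guards NR3C2 in kidney, did not exceed 0.391 FPKM and was listed at 0 in 7 libraries. Both were named for their role after their values were seen. CYP1A1, which hydroxylates oestradiol, averaged 13.4 ± 6.30 FPKM at 1.5 h and 4.38 ± 2.84 at 0 h (SD, n = 3). Its log2 difference was 1.64 ± 0.63 at 1.5 h, 1.32 ± 0.62 at 3.5 h and 0.89 ± 0.62 at 5.5 h (SE; edgeR, unadjusted p = 0.0242, 0.0569 and 0.176, adjusted p = 1.00). HSD17B10, a mitochondrial 17-beta-dehydrogenase gene, had 0.20 ± 0.10, 0.00 ± 0.10 and 0.05 ± 0.10 at 1.5, 3.5 and 5.5 h (SE).

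All 10 listed partners of PGRMC1, which act in sterol and haem handling, were tested and 0 were called, with medians of 0.01, 0.12 and 0.06 at 1.5, 3.5 and 5.5 h. INSIG1, a brake on sterol synthesis, had log2 differences of 0.01 ± 0.21, 0.35 ± 0.21 and 0.31 ± 0.21 (SE; edgeR, adjusted p = 1.00). The levels of PGRMC1 itself are not analysed here, so its partners were not set beside it.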

How the data were processed

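The authors deposited, per the file headers, a gene table with a count and an FPKM value for every gene and library, and tables of each treated time against 0 h with a log2 ratio, a p-value and a q-value (method not stated there). TopHat2 2.0.9 and Cufflinks are named, with no role, per the submitters' processing notes. No genome build or read counter is given in the sources used here. Another 42 columns of per-sample values stayed unused. PGR and NR3C2 were named through the gene number in their description and RefSeq (ARS-UI_Ramb_v3.0, names only).

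Counts were tested with edgeR 4.0.16 in R 4.3.3: TMM factors of 0.975 to 1.02, 1 model of the times over 12 libraries, mean FPKM of 1 or more, called at an adjusted p under 0.05. The script was tested on simulated data. DESeq2 1.42.0, limma 3.58.1 on log2(FPKM + 1), other filters, other scaling, a replicate block and left-out libraries were alternatives. Libraries of the same number deviated together (r of 0.218 to 0.705 for all 18 pairs, each above 0.1). For 36 pairs of unlike number r was −0.600 to 0.331. Differences within a number are therefore given, and the number was tried as a block. The main edgeR fit had no block, so its SEs, intervals and p-values do not use this pairing. Named genes were the members, the 3 genes most like each by r, and the 2 of each list with the smallest p. A few of these genes are not reported here. Members and lists were chosen with earlier results of these data known. No other gene overlaps a receptor gene in the authors' coordinates.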

Additional observations from a re-analysis of the deposited data

How the results depend on the processing

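The count of receptor genes called was 0 under every alternative run, in all 7 tests. The replicate block changed no call (PGR at 5.5 h against 0 h: 0.44, edgeR, adjusted p = 0.70). Of the planned log2 differences, 29 changed sign and 499 did not. Of those chosen after seeing the data (the block without the filter, or without each library), 19 did and 293 did not. Every value from here on is a log2 difference. None changed sign for NR3C1 or PGRMC2 against 0 h, or for PGR at 5.5 h.

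With the replicate block and numbers 1 and 2 alone, ESR1 was 0.031, 0.20 and 0.021 at 1.5, 3.5 and 5.5 h against 0 h, and −0.00994 at 5.5 h against 1.5 h. In the same setting NR3C1 was 0.014 and 0.00782, and PGRMC2 −0.058 and −0.070, at 3.5 and 5.5 h against 1.5 h, and PGRMC2 was −0.012 at 5.5 h against 3.5 h. With limma on log2(FPKM + 1) and log2(FPKM + 0.1), NR3C1 at 3.5 h against 1.5 h was 0.000514 and 0.000583. The cause was not tested.

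With each library left out in turn, with or without the block, ESR1 lay between −0.67 and 0.0039 at 1.5 h, −0.27 and 0.40 at 3.5 h and −0.56 and 0.11 at 5.5 h against 0 h, and between −0.12 and 0.32 at 5.5 h against 1.5 h. PGR lay between −0.024 and 0.18 at 1.5 h and −0.080 and 0.066 at 3.5 h against 0 h, and between −0.19 and 0.017 at 3.5 h against 1.5 h. NR3C1 lay between −0.11 and 0.054 (3.5 h against 1.5 h), −0.14 and 0.0088 (5.5 h against 1.5 h) and −0.11 and 0.011 (5.5 h against 3.5 h), and PGRMC2 between −0.058 and 0.11, −0.0475 and 0.21, and −0.086 and 0.17 in the same order. ESR2 and NR3C2 had 25 counts or fewer per library, and whether depth or failed estimates gave their listed zeros was not tested. For the other 4 receptor genes, the spread between libraries set the intervals.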
